A study of Mus musculus with 24 samples.

Results

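A pair of sorted populations of innate lymphoid cells from the wild-type mouse gut were compared across all genes, namely the cells labelled ILC1 and the CCR6 subset of the ILC3. The comparison used 6 of the 24 bulk RNA-seq libraries of the study, 3 of WT ILC1 and 3 of WT CCR6 cells, chosen by their labels and not by any measured value. All cells came from the lamina propria of the small intestine of mice aged 8 to 12 weeks. WT animals were littermates that carried floxed alleles of Nr1d1 and Nr1d2, the genes of the clock repressors REV-ERBα and REV-ERBβ, so both groups share those alleles. The study also sorted NKp46 and DN cells, and sorted the same 4 populations from DKO animals, in which the floxed genes were combined with Vav1-Cre, a recombinase active in blood cells. Gates of the sort were not stated in the sources at hand, nor do the labels say if replicate libraries were made from different animals or from pools. P-values therefore measure a spread between libraries, estimated from all 24 together, which may be technical.

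Innate lymphoid cells lack rearranged antigen receptors and react to cytokines and tissue signals. ILC1 depend on the transcription factor T-bet, make interferon gamma and share many receptors with natural killer cells. CCR6 ILC3 include the lymphoid tissue inducer-like cells, make IL-17 and IL-22 in the gut wall and carry lymphotoxins with which they help build lymphoid follicles. In bulk RNA, fewer cells of a type and less RNA per cell cannot be told apart.

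The libraries held 12763228 to 41078295 counts in WT ILC1 and 51554636 to 84395154 in WT CCR6. Spearman correlations between replicates, over genes, were 0.889 to 0.927 in ILC1 and 0.956 to 0.968 in CCR6. WT ILC1 library 2 was the shallowest and stood apart. It had 84.1% of its counts in protein-coding genes and 9.39% in ribosomal RNA, against 91.6% to 94.9% in protein-coding genes in the other 23 libraries. In a principal component analysis of the 6 libraries, the first component (48.5% of variance) separated the populations, and the second (23.5%) put ILC1 library 2 at 132 and ILC1 libraries 1 and 3 at -125 and -83.0. Counts of called genes are therefore also given with that library left out of the fit. Levels are CPM, a gene's counts scaled to a normalized library total of 1e+06, listed for libraries 1, 2 and 3 in that order. Each fold change is ILC1 over CCR6 on the log2 scale. The value after ± is an approximate standard error (SE), the size of the fold change divided by the square root of the test's F statistic. It is rough for genes near 0 in a group, where the fitted fold change depends on a prior count. P-values of edgeR's quasi-likelihood F test were adjusted by the Benjamini-Hochberg method over 21286 tested genes. Genes with an adjusted p below 0.05 are named called.

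The populations differed in 4113 of 21286 tested genes (19.3%). Of these, 1986 were higher in ILC1 (9.33% of tested genes) and 2127 were lower (9.99%). Every count of called list members below is to be read against those shares. A change of more than 2-fold was fitted for 1317 of the higher and 1468 of the lower genes, and 61 and 192 of the called genes had no count at all in the lower group. The median log2 fold change over all tested genes was -0.02. At an unadjusted p under 0.05 there were 6741 genes (31.7%). The libraries of the groups did not overlap in 6480 genes (30.4%). The 3 ILC1 libraries lay above all 3 CCR6 libraries in 2585 genes (12.1%) and below them in 3895 (18.3%). Without ILC1 library 2 the calls numbered 1792 higher and 1885 lower, and these held 1456 (73.3%) of the higher and 1563 (73.5%) of the lower genes called with it. The sign of the fold change turned in 4 of the higher and 0 of the lower genes. A fit on the 6 libraries alone called 836 higher and 987 lower genes. With ILC1 library 2 also left out, that fit called 1246 higher and 1540 lower genes. The cause of these lower numbers was not tested.

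**Figure D1:**
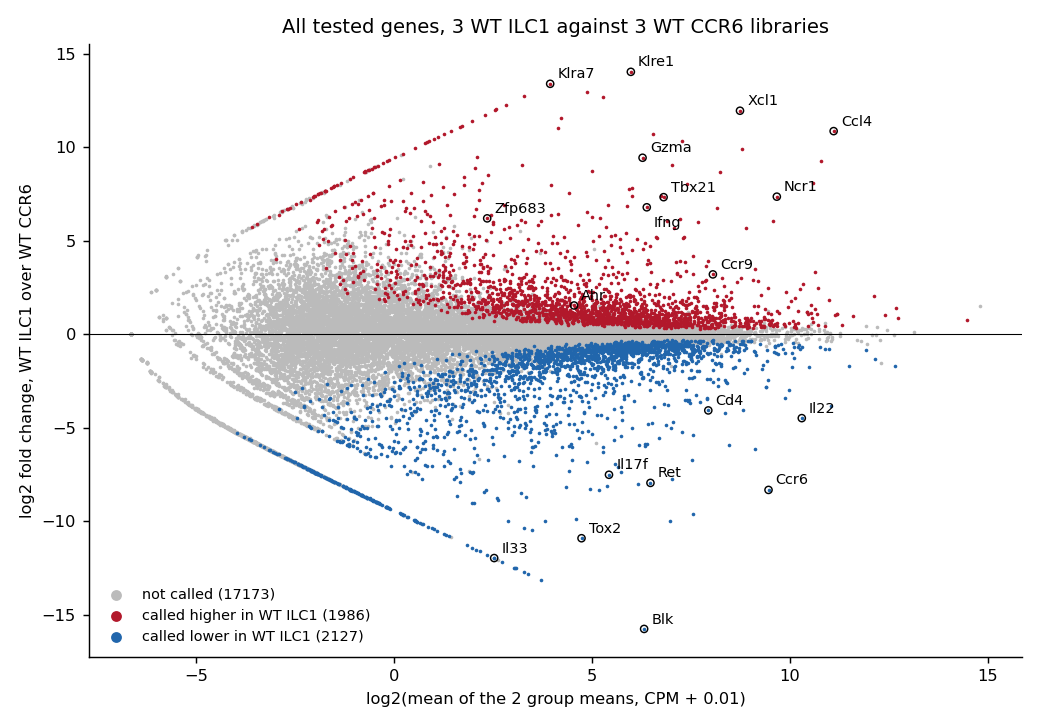
Every tested gene by its mean level (x axis, log2 of CPM + 0.01) and its log2 fold change of WT ILC1 over WT CCR6 (y axis). Red points are the 1986 genes called higher, blue the 2127 called lower and grey the rest. Circled genes are named, and genes without counts in a group form the curved edges, where the fitted value depends on a prior count.

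Ncr1 was higher in ILC1, and Ccr6 and Cd4 were higher in CCR6. Ncr1, which encodes the receptor NKp46 (ENSMUSG00000062524; chromosome 7, 4337724 to 4345164, plus strand), measured 2019, 793 and 2029 CPM in ILC1 and 12.1, 11.5 and 5.95 in CCR6. The WT NKp46 libraries averaged 824 CPM, so Ncr1 alone does not check the ILC1 label. Ccr6, the chemokine receptor that names the CCR6 population (chromosome 17, 8236043 to 8257141, plus strand), measured 1305, 1476 and 1417 CPM in CCR6 and 9.84, 0.0804 and 2.31 in ILC1. Cd4, present on part of the lymphoid tissue inducer cells of mice, was at 504, 425 and 457 CPM in CCR6 against 41.7, 10.3 and 29.4 in ILC1. None of these genes overlapped between the groups, and their fold changes were 7.36 ± 0.37 (adjusted p = 3.28e-12), -8.33 ± 0.88 (adjusted p = 5.65e-07) and -4.08 ± 0.44 (adjusted p = 4.98e-07). Without ILC1 library 1, which held most of the Ccr6 reads of its group, the change of Ccr6 was -9.87.

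Markers of other cell types were also followed. Of the T cell genes, 8 of 17 tested were called higher in ILC1 and 2 lower (median log2 fold change 0.42), or 8 and 1 without ILC1 library 2 (median 0.54). The shares over all tested genes were 9.33% and 9.99%. Summed levels of the T cell genes ran from 1656 to 2472 CPM in WT ILC1 and from 1386 to 1516 CPM in WT CCR6. Most of these sums came from 4 constant segments of T cell receptor genes, which differed unequally. Trbc1 measured 512, 444 and 422 CPM in ILC1 and 155, 171 and 142 in CCR6 (1.56 ± 0.10, adjusted p = 1.66e-10), and Trgc4 473, 249 and 546 and 139, 130.4 and 129.7 (1.67 ± 0.17, adjusted p = 2.43e-07). Trbc2 stood at 636, 446 and 522 CPM against 483, 401 and 378 (0.35 ± 0.12, adjusted p = 0.0441), and Trgc1 was lower in ILC1 at 367, 188 and 358 against 438, 432 and 477 (-0.56 ± 0.17, adjusted p = 0.0212). The call on Trbc2 was lost without CCR6 library 2 (adjusted p = 0.177), CCR6 library 3 (adjusted p = 0.192), ILC1 library 1 (adjusted p = 0.31) or ILC1 library 3 (adjusted p = 0.0887), and that on Trgc1 without CCR6 library 3 (adjusted p = 0.0822) or ILC1 library 2 (adjusted p = 0.0747). Higher calls on Cd3d and Themis were lost without CCR6 libraries 2 or 3 or ILC1 libraries 1 or 3 (adjusted p from 0.0583 to 0.18). That on Cd3d was also lost without ILC1 library 2 (adjusted p = 0.0606), and that on Themis without CCR6 library 1 (adjusted p = 0.134). The genes of the CD3 complex stayed below 120 CPM in each library. Cd3e measured 91, 44.4 and 92.5 CPM in ILC1 and 97.1, 72.2 and 79.4 in CCR6, and Trac, the constant segment of the T cell receptor alpha chain, measured 94.1, 88.9 and 83.9 and 19.7, 16.7 and 15.6. Ighm, the IgM heavy chain constant segment, was called higher in ILC1 at 531, 263 and 572 CPM against 30, 25.9 and 34.3, and Cd79b, a signalling chain of the B cell receptor, was called lower at 67.2, 30.3 and 39 against 90.2, 90.6 and 97.9. Of the B and plasma cell genes, 1 of 10 tested was called higher in ILC1 and 1 lower (median log2 fold change -0.37), or 1 and 1 without ILC1 library 2 (median -1.20), against 9.33% and 9.99% of all tested genes. Their summed levels overlapped, from 424 to 690.4 CPM in WT ILC1 and from 146 to 724 CPM in WT CCR6, and CCR6 library 3 held the most Igkc (492 CPM against at most 86.8 in the other 5 libraries). Summed levels of the myeloid genes ran from 132 to 612 CPM in WT ILC1 and from 72 to 89.9 CPM in WT CCR6, and the neutrophil gene S100a8 reached 260 CPM in ILC1 library 2 against 28.6 and 16.7 in ILC1 libraries 1 and 3. Of the myeloid and mast cell genes, 3 of 16 tested were called higher in ILC1 and 1 lower (median log2 fold change 1.17), or 1 and 1 without ILC1 library 2 (median 1.35). The call on S100a8 was lost without CCR6 library 2 (adjusted p = 0.107), CCR6 library 3 (adjusted p = 0.106) or ILC1 library 2 (adjusted p = 0.193).

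Stromal and epithelial genes were also followed. Of the stromal and endothelial genes, 5 of 13 tested were called higher in ILC1 and 1 lower (median log2 fold change 4.33), or 3 and 1 without ILC1 library 2 (median 4.44). The shares over all tested genes were 9.33% and 9.99%. Summed levels of the list overlapped, at 10.7, 49 and 123 CPM in ILC1 and from 72.8 to 92.4 CPM in CCR6. Col1a1, a fibroblast collagen, measured 0.0967, 4.42 and 21.2 CPM in ILC1 and 0.589, 0.0118 and 0.0895 in CCR6, so it was high in ILC1 libraries 2 and 3 and not in library 1. Its call was lost without CCR6 library 2 (adjusted p = 0.0953), CCR6 library 3 (adjusted p = 0.0993) or ILC1 library 3 (adjusted p = 0.15). The other higher calls, on Col1a2, Col3a1, Dcn and Pdgfra, were also lost without CCR6 library 2 (adjusted p from 0.0839 to 0.13). Each of them was lost without some other libraries as well. The pericyte receptor gene Pdgfrb went the other way, at 5.42, 0 and 4.34 CPM in ILC1 and 70.9, 90.5 and 76.6 in CCR6. Of the epithelial genes, 2 of 13 tested were called higher in ILC1 and 0 lower (median log2 fold change 0.27), or 2 and 0 without ILC1 library 2 (median -1.03), against 9.33% and 9.99% of all tested genes. The higher ones were Cdh1 and Epcam, the latter at 0.871, 7.39 and 5.82 CPM in ILC1, while Vil1, Fabp1, Krt19 and Muc2, which define absorptive and goblet cells, stayed below 3 CPM in each library. Cdh1, which encodes E-cadherin, was even across the ILC1 libraries at 59.7, 56.3 and 59.1 CPM, against 0, 0 and 0.0128 in CCR6, where 1 read was counted in all. The part of these cell types in the differences below was not tested.

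Transcription factors that define the lineages separated the groups in both directions. Of the lineage factors, 15 of 35 tested were called higher in ILC1 and 6 lower (median log2 fold change 0.53), or 16 and 7 without ILC1 library 2 (median 0.22). Tbx21, which encodes T-bet (chromosome 11, 97098071 to 97115331, minus strand), measured 105, 276 and 286 CPM in ILC1 and 0.95, 1.58 and 1.57 in CCR6, a log2 fold change of 7.33 ± 0.68 (SE, adjusted p = 4.59e-08). The groups did not overlap, though ILC1 library 1 had less than 40% of the level of either other ILC1 library. Tox2, of the TOX family, was nearly absent from ILC1 at 0.0323, 0.0804 and 0 CPM, from 2 reads in all, and stood at 57.6, 52.9 and 48.8 in CCR6 (adjusted p = 1.39e-09).

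Prdm1, the gene of the repressor Blimp-1, was at 86.1, 43.1 and 108 CPM in ILC1 and 5.89, 5.43 and 3.96 in CCR6 (3.96 ± 0.33, adjusted p = 7.84e-09). Its relative Zfp683, which encodes Hobit, a factor of tissue-resident lymphocytes, was lower in level but as clearly set apart, with 11.4, 5.14 and 13.6 CPM against 0.228, 0.0589 and 0.128 (6.20 ± 0.72, adjusted p = 2.63e-06). Bcl11b was higher in ILC1 by 3.06 ± 0.30 (adjusted p = 8.84e-08), at 72.7, 126 and 61.5 CPM against 11.1, 9.01 and 11.1. Smaller rises were called for Ikzf3 (1.38), Lef1 (1.54), Runx2 (1.34), Zbtb16, which encodes PLZF (1.33), Irf8 (0.87) and Stat4, a mediator of IL-12 signals (0.70). Runx2 and Stat4 overlapped between the groups although they were called. Eomes, which marks conventional natural killer cells, was called as well, but its 0.161, 0.161 and 2.62 CPM in ILC1 came mostly from library 3. The call on Eomes was lost without CCR6 library 1 (adjusted p = 0.0624), CCR6 library 2 (adjusted p = 0.0757) or ILC1 library 3 (adjusted p = 0.1), and that on Stat4 without CCR6 library 1 (adjusted p = 0.0583), CCR6 library 2 (adjusted p = 0.0612) or ILC1 library 3 (adjusted p = 0.114).

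Factors that fell in ILC1 besides Tox2 included Tcf7, Tox, Rora and Batf. Tcf7, which encodes TCF-1, measured 244, 250.2 and 197 CPM in ILC1 and 600.5, 648 and 555 in CCR6 (-1.38 ± 0.12, adjusted p = 9.85e-09), and Tox measured 125, 81.2 and 111 and 242, 266 and 261 (-1.27 ± 0.13, adjusted p = 1.28e-07). Rora, the gene of a nuclear receptor, differed less, with 656, 677 and 526 CPM against 965, 976 and 913 (-0.62 ± 0.10, adjusted p = 0.000153). Several general lymphoid factors were not called. Id2, on which all innate lymphoid cells depend, measured 4969, 3030 and 4571 CPM in ILC1 and 4386, 4177 and 4600 in CCR6 (-0.07 ± 0.14, adjusted p = 0.787), Gata3 520.3, 319 and 519 and 432, 508 and 503 (-0.09 ± 0.16, adjusted p = 0.757), and Runx3 219.7, 376 and 204 and 220.2, 197 and 178 (0.42 ± 0.17, adjusted p = 0.0857).

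**Figure D2:**
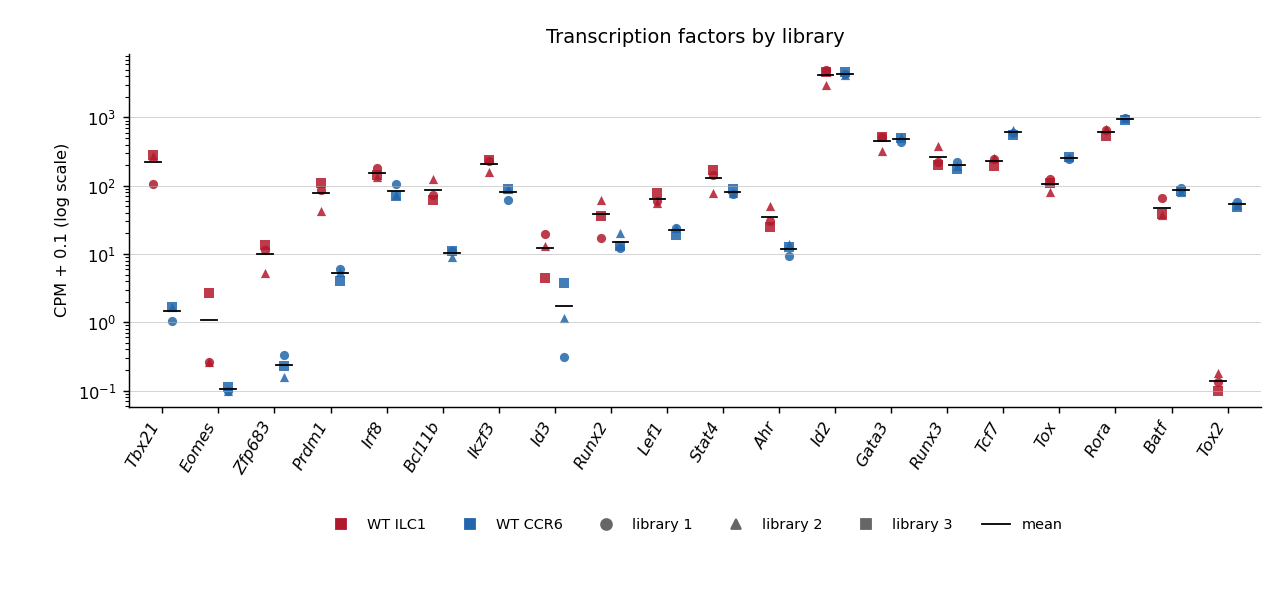
Levels of 20 transcription factors in each WT ILC1 (red) and WT CCR6 (blue) library, in CPM + 0.1 on a log axis, with library number by symbol and the group mean as a bar. Tbx21 and Tox2 separate the groups in opposite directions, Id2 and Gata3 overlap, and Eomes is raised in ILC1 library 3 alone.

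Natural killer receptors were higher in ILC1 or not called. Of the receptors, 19 of 22 tested were called higher in ILC1 and 0 lower (median log2 fold change 4.81), or 20 and 0 without ILC1 library 2 (median 4.99), against 9.33% of all tested genes called higher. Klrb1c, which encodes NK1.1, measured 998, 696 and 1109 CPM in ILC1 and 18.1, 21.2 and 14.3 in CCR6 (5.71 ± 0.20, adjusted p = 1.89e-14). Klrd1, which encodes CD94, the partner chain of the NKG2 receptors, stood at 361, 260.5 and 303 CPM against 0.57, 0.0471 and 0.179 (10.32 ± 0.72, adjusted p = 5.44e-10). Klrk1, the gene of the activating receptor NKG2D, was at 1184, 548 and 1347 CPM against 83, 92.8 and 95.3 (3.50 ± 0.23, adjusted p = 2.01e-10), so CCR6 cells kept a level of it well above 0. Klre1 was read almost only in ILC1 among these 6 libraries, with 144, 87.7 and 146 CPM and 1 read in the 3 CCR6 libraries together. Klrc1 (714, 246 and 842 CPM) and Klrc2 (235, 109 and 212 CPM) were below 4 CPM in each CCR6 library. Their sequences are close to each other and to Klrc3, so the split of reads among them is uncertain.

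Other receptors of the list differed over a wide range. Cd244a, which encodes 2B4, changed by 3.89 ± 0.20 (adjusted p = 4.8e-12), Cd160 by 2.46 ± 0.16 (adjusted p = 1.32e-10), Cd226 by 1.95 ± 0.18 (adjusted p = 2.94e-08) and Slamf7 by 7.41 ± 0.41 (adjusted p = 1.23e-11). Members not called were Cd96 (-0.25 ± 0.17, adjusted p = 0.329), Crtam (1.12 ± 0.44, adjusted p = 0.079) and Klrg1, with 47.6, 7.63 and 22 CPM in ILC1 and 19.7, 8.99 and 8.69 in CCR6. Klrg1 was called without ILC1 library 2, which held the lowest of the ILC1 values (log2 fold change 1.49, adjusted p = 0.00698). In the 3 WT NKp46 and 3 WT DN libraries, Klrb1c averaged 129 and 37.2 CPM and Klrd1 2.84 and 20.5 CPM. Other receptors were more abundant in WT NKp46. Ncr1 averaged 824 CPM there, Cd160 428, Klrk1 381 and Cd226 281, against 1614, 1184, 1026 and 318 in WT ILC1. Summed over the list, levels ran from 3460 to 3892 CPM in WT NKp46, 5804 to 10400 in WT ILC1 and 1557 to 1701 in WT CCR6.

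Inhibitory and activating Ly49 receptors, which bind MHC class I, were without a read in CCR6 libraries for 6 of the 7 tested members. Those 6 were called higher in ILC1 with and without library 2, against 9.33% of all tested genes. Without reads in CCR6, they could pass the filter only through other groups, so the count adds nothing to their levels. The list held 11 members, and those not tested were at most 0.226 CPM in any of the 6 libraries. Klra7, with 31.3, 22.5 and 38.2 CPM in ILC1, was at least 2206-fold higher, taking 3 counts over the CCR6 group as the floor. Klra1 (14.3, 8.68 and 19.2 CPM) was at least 1010-fold higher, and Klra6, the least abundant of them (6.8, 3.13 and 6.17 CPM), at least 386-fold higher. Klra2 was not called, and was at most 0.4 CPM in any of the 6 libraries. The list's median log2 fold change was 12.00 as fitted and 9.72 with the genes at 0 set to their bound. Ly49 genes are near copies of each other, and how the counting treated reads that fit several of them is not given in the sources used here.

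Adaptors that carry signals of these receptors were higher in ILC1 in part. Of the receptor-proximal signalling genes, 15 of 29 tested were called higher in ILC1 and 3 lower (median log2 fold change 0.86), or 14 and 3 without ILC1 library 2 (median 0.92). Tyrobp, which encodes DAP12, measured 312, 322 and 283 CPM in ILC1 and 10, 9.18 and 6.49 in CCR6 (5.16 ± 0.38, adjusted p = 1.39e-09). Hcst, which encodes DAP10, the adaptor of NKG2D, was at 478, 548 and 346 CPM against 99.9, 85.8 and 76.5 (2.39 ± 0.15, adjusted p = 6.83e-11). Fcer1g, the gene of the other common adaptor chain, overlapped at 1424, 1101 and 1115 CPM against 1128, 1002 and 857 (0.28 ± 0.13, adjusted p = 0.127). The Src-family kinases split. Lck changed by 2.84 ± 0.20 (adjusted p = 3.81e-10), Fgr by 5.83 ± 0.70 (adjusted p = 2.22e-06) and Fyn by 2.06 ± 0.27 (adjusted p = 5.46e-06), all higher in ILC1, and Lyn by 0.10 ± 0.15 (adjusted p = 0.687). The change of Fyn was 1.46 without ILC1 library 2. Blk, a kinase best known from B cells, had no read in any ILC1 library and 169.6, 138 and 169.6 CPM in CCR6, so that it was at least 4390-fold lower in ILC1 (adjusted p = 1.75e-07). Plcg2 was lower in ILC1 (-1.57 ± 0.14, adjusted p = 1.73e-08), and Plcg1 higher (1.52 ± 0.34, adjusted p = 0.00253).

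Genes of killing were higher in ILC1 or not called. Of the granule and killing genes, 13 of 18 tested were called higher in ILC1 and 0 lower (median log2 fold change 3.34), or 14 and 0 without ILC1 library 2 (median 3.23). The shares over all tested genes were 9.33% and 9.99%. Nkg7, a granule membrane protein, measured 3284, 2936 and 2962 CPM in ILC1 and 17.3, 8.36 and 8.06 in CCR6 (8.09 ± 0.35, adjusted p = 3.51e-13). Perforin, from Prf1, was at 358, 189.9 and 328 CPM against 4.35, 3.4 and 4.66 (6.14 ± 0.30, adjusted p = 2.5e-12). Among granzymes, Gzma stood at 123, 182 and 158 CPM against 0, 0.424 and 0.179 (9.44 ± 0.66, adjusted p = 1.66e-09), Gzmb at 474, 308 and 421 against 12.2, 4 and 2.78 (6.0 ± 0.64, adjusted p = 3.74e-07) and Gzmc at 174, 187 and 112 against 7.33, 5.66 and 3.2 (4.87 ± 0.67, adjusted p = 1.4e-05). Gzmk had no read in ILC1 and at most 0.133 CPM in CCR6. Death ligands followed, with Fasl at 396, 201 and 402 CPM against 2.83, 1.11 and 0 (8.04 ± 0.75, adjusted p = 4.86e-08) and Tnfsf10, which encodes TRAIL, at 93.2, 115 and 114 against 13.2, 11.5 and 8.22 (3.29 ± 0.25, adjusted p = 2.11e-09). The change of Fasl was 9.19 without CCR6 library 1 and 7.43 without CCR6 library 3, and without CCR6 library 2 that of Gzma was 10.50. The granzyme inhibitors Serpinb6b (3.0) and Serpinb9 (2.78) were higher too. The secretion genes Rab27a (0.04 ± 0.20, adjusted p = 0.93) and Unc13d (0.41 ± 0.17, adjusted p = 0.0891) were expressed in both groups and not called, though Unc13d was called higher without ILC1 library 2 (0.63, adjusted p = 0.00111).

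Chemokine genes were among the widest differences, from more than 600 CPM in each ILC1 library to less than 10 in CCR6 for the leading 4. Of the chemokine ligands, 5 of 12 tested were called higher in ILC1 and 1 lower (median log2 fold change 4.1), or 5 and 1 without ILC1 library 2 (median 4.07). Ccl4 measured 5557, 3489 and 4121 CPM in ILC1 and 1.2, 0.0942 and 5.73 in CCR6 (10.86 ± 0.89, adjusted p = 1.44e-08), and Ccl5 4372, 2742 and 3412 and 7.5, 3.97 and 5.67 (9.27 ± 0.42, adjusted p = 5.9e-13). Ccl3 stood at 1153, 623 and 869 CPM against 2, 0.153 and 0.78 (9.89 ± 0.90, adjusted p = 5.68e-08). Xcl1, the lymphotactin gene, whose product draws cross-presenting dendritic cells, was at 1082, 773 and 700.2 CPM against 0.551, 0 and 0.179 (11.95 ± 0.61, adjusted p = 4.8e-12). Divided by exon length, mean levels in ILC1 were 6650 CPM per kb for Ccl4, 3655 for Ccl5, 1629 for Xcl1 and 1151 for Ccl3. No library of one group overlapped the other in these 4 genes. With CCR6 levels near 0, the fold changes moved with single libraries, to 12.86 for Ccl4 without CCR6 library 3 and, without CCR6 library 1, to 10.88 for Ccl3 and 13.20 for Xcl1. Without CCR6 library 2 they fell, to 10.27 for Ccl4 and 11.25 for Xcl1. Ccl1, a ligand of CCR8, was at 3.19, 3.21 and 3.81 CPM in ILC1 and had no read in CCR6, at least 245-fold higher. Cxcl10, an interferon-induced ligand, was the called gene on the lower side (-1.28 ± 0.34, adjusted p = 0.0107), and its call was lost without CCR6 library 1 (adjusted p = 0.165). Cxcl2, a neutrophil attractant, overlapped (0.15 ± 0.35, adjusted p = 0.811).

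The signature cytokines divided by type. Of the cytokines, 7 of 26 tested were called higher in ILC1 and 8 lower (median log2 fold change 0.10), or 7 and 8 without ILC1 library 2 (median 0.37). Ifng measured 225, 125 and 145 CPM in ILC1 and 3.7, 0.247 and 0.716 in CCR6 (6.79 ± 0.60, adjusted p = 1.89e-08). Of its exon length, 25.9% is shared with a predicted gene on the same strand. Il22 measured 3628, 2132 and 1460 CPM in CCR6 and 213, 75.1 and 33 in ILC1 (-4.49 ± 0.47, adjusted p = 2.82e-07), a wide range within each group but without overlap. Il17f stood at 119, 67.4 and 70 CPM in CCR6 against 0, 0.161 and 0.991 in ILC1 (-7.52 ± 0.76, adjusted p = 1.54e-07), and Il17a at 46.3, 25.4 and 21.4 against 0, 0.0804 and 1.7 (-5.46 ± 0.79, adjusted p = 3.62e-05). Single libraries set the size of these changes, with 8.41 for Ifng without CCR6 library 1, -5.51 for Il22 without ILC1 library 1, and -10.76 for Il17f and -10.22 for Il17a without ILC1 library 3. Without ILC1 library 1 they were smaller, -6.89 for Il17f and -4.85 for Il17a. Per kb of exon, mean levels in CCR6 were 2168 CPM for Il22, 42.3 for Il17f and 26.5 for Il17a. In the WT NKp46 and DN libraries, Il22 averaged 1423 and 1192 CPM and Ifng 55.3 and 44.1 CPM.

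The lymphotoxin genes were higher in CCR6, Lta by more than Ltb. Lta measured 24.7, 27.2 and 29.2 CPM in ILC1 and 206, 212 and 215 in CCR6 (-2.96 ± 0.16, adjusted p = 9.82e-12), and Ltb 707, 607 and 546 and 1348, 1261 and 1168 (-1.02 ± 0.12, adjusted p = 2.25e-06). Tnfsf11, which encodes RANKL, changed by -1.54 ± 0.33 (adjusted p = 0.00169), Tnf by -0.61 ± 0.18 (adjusted p = 0.0161) and the IL-6 family member Lif by -2.88 ± 0.29 (adjusted p = 1.51e-07), all lower in ILC1. On the higher side were Tnfsf14, the gene of LIGHT, which shares a receptor with lymphotoxin (125, 75.9 and 96.5 CPM against 21.4, 23.8 and 25.6, 2.07 ± 0.18, adjusted p = 1.17e-08), and Csf2, which encodes GM-CSF (173, 107 and 76.2 against 47.3, 26.8 and 22.2, 1.89 ± 0.29, adjusted p = 5.67e-05). Il2 (1.89 ± 0.27, adjusted p = 2.51e-05), Il4 (4.16 ± 0.66, adjusted p = 8.16e-05) and Tgfb1 (1.59 ± 0.34, adjusted p = 0.0015) were higher too, from less than 13 CPM in each CCR6 library. Without ILC1 library 1 the change of Il4 was 3.50. The call on Tnf was lost without CCR6 library 1 (adjusted p = 0.131) or ILC1 library 3 (adjusted p = 0.0739). Areg was called higher, highest in ILC1 library 2, and its call was lost without CCR6 library 2 (adjusted p = 0.181), CCR6 library 3 (adjusted p = 0.174) or ILC1 library 2 (adjusted p = 0.219).

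**Figure D3:**
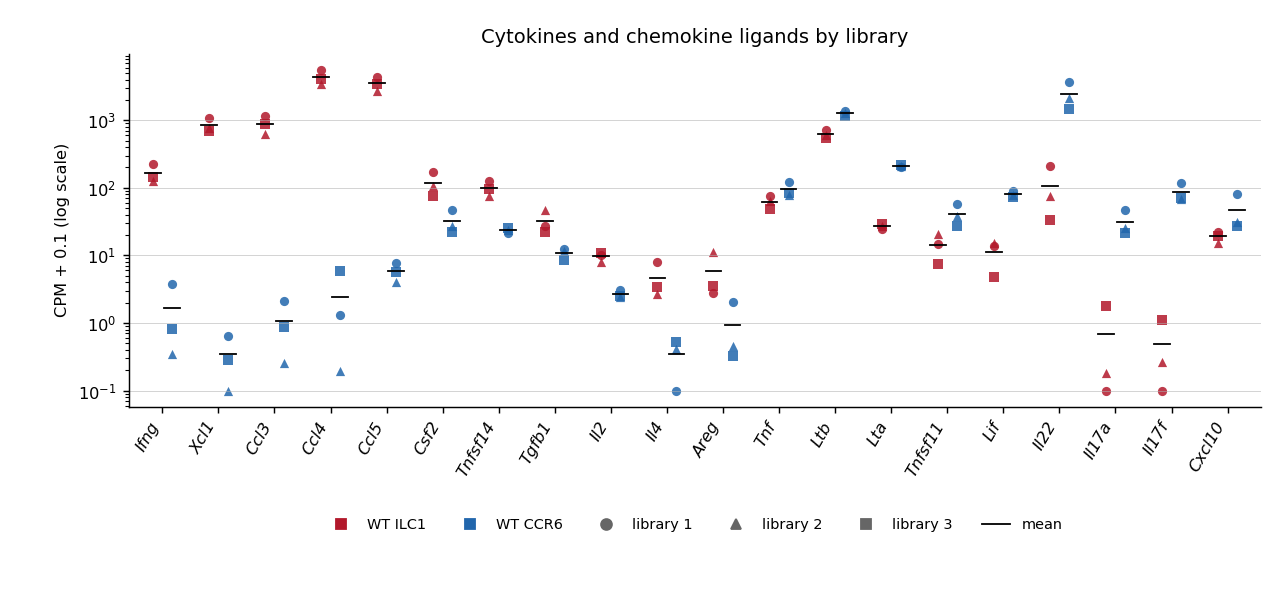
Levels of 20 cytokine and chemokine genes in each WT ILC1 (red) and WT CCR6 (blue) library, in CPM + 0.1 on a log axis, with library number by symbol and the group mean as a bar. Ifng, Xcl1, Ccl3, Ccl4 and Ccl5 lie higher in all ILC1 libraries, and Il22, Il17a and Il17f in all CCR6 libraries.

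The promoters of Xcl1, Ccl3 and Il17f are shown because they hold a motif of a factor family named above and belong to the genes with the largest called change, each way, among factors, cytokines and chemokines with that motif. Searched on both strands were TCACAC, a core bound by T-box factors, AGGTCA, the core bound by ROR and REV-ERB receptors, and TGTGGT, the RUNX core. Capitals mark the matches. The sequences are the 250 bases before the start site, 5′ to 3′ on the gene's strand, from RefSeq on GRCm38.p6.
Xcl1, chr1:164935523-164935772, minus strand: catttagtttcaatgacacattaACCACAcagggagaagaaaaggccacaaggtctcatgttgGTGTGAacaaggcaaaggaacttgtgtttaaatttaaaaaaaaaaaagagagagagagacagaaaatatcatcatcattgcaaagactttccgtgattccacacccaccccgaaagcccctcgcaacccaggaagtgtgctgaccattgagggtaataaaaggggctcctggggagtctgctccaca
Ccl3, chr11:83649379-83649628, minus strand: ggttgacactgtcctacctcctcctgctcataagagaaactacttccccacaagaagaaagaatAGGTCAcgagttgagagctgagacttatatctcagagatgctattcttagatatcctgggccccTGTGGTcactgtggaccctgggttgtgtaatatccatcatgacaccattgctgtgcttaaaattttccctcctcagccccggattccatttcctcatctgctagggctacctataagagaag
Il17f, chr1:20784271-20784520, minus strand: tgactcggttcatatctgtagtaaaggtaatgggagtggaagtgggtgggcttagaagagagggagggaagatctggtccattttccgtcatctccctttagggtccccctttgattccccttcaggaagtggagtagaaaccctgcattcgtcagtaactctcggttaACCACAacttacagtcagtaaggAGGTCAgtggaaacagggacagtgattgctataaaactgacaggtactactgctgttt
The Xcl1 promoter held the reverse complement of the RUNX core 227 bases before the start and that of the T-box core at 187. The Ccl3 promoter held AGGTCA at 186 and TGTGGT at 122, and that of Il17f the reverse complement of the RUNX core at 81 and AGGTCA at 58. No match overlapped another motif. These genes were picked for holding a motif, so matches before genes of each direction follow from that choice. Among the called factors, cytokines and chemokines with a promoter, 4 of 21 higher and 0 of 13 lower genes held the T-box core. No lower gene is therefore shown for it. A match is a string of letters and no evidence of binding. Of the 12079 tested genes with a promoter in the table, 9.61% held the T-box core, 11.2% the ROR core and 11.6% the RUNX core. Among the 1281 called higher the shares were 9.99%, 9.45% and 12.4%, and among the 1523 called lower 9.13%, 11.8% and 11.7%.

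Receptors for IL-12 and IL-23 went in opposite directions. Of the cytokine receptors, 10 of 29 tested were called higher in ILC1 and 9 lower (median log2 fold change 0.55), or 11 and 8 without ILC1 library 2 (median 0.73). Il12rb2, the signalling chain of the IL-12 receptor, measured 68.6, 39 and 82.5 CPM in ILC1 and 0, 0.141 and 0.269 in CCR6 (8.73 ± 0.73 (adjusted p = 7.84e-09), or 9.55 without CCR6 library 3). Its exons share 40.0% of their length with Serbp1 on the opposite strand, which was more abundant, and the strand setting of the counting is not given in the sources used here. Il23r stood at 306, 325 and 324 CPM in CCR6 against 25.2, 26.8 and 28.3 in ILC1 (-3.57 ± 0.21, adjusted p = 3.89e-11), while Il12rb1, the chain both receptors share, was not called (0.44 ± 0.19, adjusted p = 0.111), though it was higher without ILC1 library 2 (adjusted p = 0.00541). Il1r1, the IL-1 receptor, was at 273, 337 and 291 CPM in CCR6 against 2.19, 8.6 and 13.1 in ILC1 (-5.24 ± 0.37 (adjusted p = 6.9e-10), or -5.93 without ILC1 library 3). Il17re, a chain of the IL-17C receptor, changed by -3.24 ± 0.14 (adjusted p = 2.72e-13), and Kit, the stem cell factor receptor, by -1.86 ± 0.20 (adjusted p = 2.84e-07).

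The shared gamma-chain receptors went both ways. Il2rb, which binds IL-2 and IL-15, was higher in ILC1 at 2416, 1599 and 2592 CPM against 911, 704 and 587 (1.58 ± 0.18, adjusted p = 5.97e-07). Il7r (-0.98 ± 0.15, adjusted p = 4.88e-05) and Il2ra (-1.61 ± 0.14, adjusted p = 2.14e-08) were lower, the gamma chain Il2rg was not called (-0.28 ± 0.17, adjusted p = 0.268), and Il21r (6.27 ± 0.94, adjusted p = 3.79e-05) and Il4ra (1.39 ± 0.17, adjusted p = 1.69e-06) were higher. The 2 chains of the interferon gamma receptor moved apart. Ifngr1 measured 2230, 1293 and 2201 CPM in ILC1 and 801, 835 and 848 in CCR6 (1.21 ± 0.15, adjusted p = 2.23e-06), and Ifngr2 2.16, 4.18 and 0.254 and 41, 54.4 and 59.8 (-4.67 ± 0.61 (adjusted p = 6.88e-06), or -5.45 without ILC1 library 2). Il10ra was at 34.2, 41.9 and 50.8 CPM against 0, 0.483 and 0.141 (7.57 ± 0.95, adjusted p = 3.72e-06). Of the IL-18 receptor chains, Il18r1 was not called (0.30 ± 0.18, adjusted p = 0.273), and Il18rap was called higher (0.68 ± 0.17, adjusted p = 0.00737) but not without CCR6 library 2 (adjusted p = 0.0549) or ILC1 library 3 (adjusted p = 0.0788). Calls on Flt3 and Csf2rb, at most 3.15 and 9.72 CPM in any library, were lost when any of several libraries was left out, ILC1 library 2 among them (adjusted p = 0.0511 and 0.236). The change of Il21r was 9.45 without CCR6 library 1 and 5.67 without CCR6 library 2, and without CCR6 library 2 that of Il10ra was 9.0.

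Homing receptors differed in both directions. Of the chemokine and lipid migration receptors, 7 of 20 tested were called higher in ILC1 and 5 lower (median log2 fold change 0.24), or 8 and 5 without ILC1 library 2 (median 0.52). Cxcr5, the receptor for follicle chemokine, measured 268, 241 and 265 CPM in CCR6 and 2.52, 0 and 0.635 in ILC1 (-7.77 ± 0.67, adjusted p = 1.29e-08), and Ccr7, used to enter lymph nodes, 19.7, 6.32 and 7.71 and 2.23, 0 and 0.839 (-3.37 ± 0.82, adjusted p = 0.00484). Gpr183, the oxysterol receptor, was lower in ILC1 by a small amount (-0.69 ± 0.12, adjusted p = 0.000278). Inflammatory receptors were among those higher in ILC1. Ccr2 stood at 294, 203 and 341 CPM against 19.3, 18.5 and 18.2 (3.90 ± 0.20, adjusted p = 4.8e-12) and Cxcr3, the receptor of interferon-induced chemokines, at 294, 188 and 287 against 33.5, 28.1 and 21.9 (3.21 ± 0.18, adjusted p = 2.09e-11). The gut-homing receptor Ccr9 was at 521, 335 and 579 CPM in ILC1 and 33, 54 and 69.1 in CCR6 (3.20 ± 0.23, adjusted p = 6.48e-10), with means of 589 in WT NKp46 and 597 in WT DN. Cxcr6, abundant in all 6 libraries, overlapped (0.03 ± 0.19, adjusted p = 0.936), and was called higher without ILC1 library 2 (0.34, adjusted p = 0.0308). The change of Cxcr5 was -9.19 without ILC1 library 1. The call on Cxcr4 was lost without ILC1 library 2 (adjusted p = 0.181).

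Of the integrin and adhesion genes, 13 of 24 tested were called higher in ILC1 and 4 lower (median log2 fold change 0.84), or 13 and 4 without ILC1 library 2 (median 0.82). Itga1, which encodes CD49a, a marker of tissue ILC1, measured 27.7, 94 and 89.9 CPM in ILC1 and 2.41, 1.82 and 1.32 in CCR6 (5.25 ± 0.46, adjusted p = 1.74e-08), with library 1 the lowest of the ILC1 libraries. Itga2, which encodes CD49b of conventional natural killer cells, was at 4.74, 5.38 and 16.8 CPM against 3.72, 2.72 and 3.47 (1.45 ± 0.41, adjusted p = 0.0151). Itgax (6.91 ± 0.84, adjusted p = 2.3e-06), Itgad (8.45, 6.03 and 10.9 CPM against 0, 0.0118 and 0.0128) and Itgb1 (2.42 ± 0.29, adjusted p = 1.93e-06) were higher in ILC1. Lower were Nrp1, which encodes neuropilin-1, a marker of lymphoid tissue inducer cells (1.55, 3.62 and 5 CPM against 296, 426 and 377, -6.75 ± 0.73, adjusted p = 4.48e-07), the tetraspanin gene Cd81 (16.4, 0.562 and 15.5 against 796, 629 and 646, -5.95 ± 0.61, adjusted p = 1.75e-07), and Itga4 (-1.74 ± 0.19, adjusted p = 4.54e-07). Itgae, which encodes CD103, was below 10 CPM in the 6 libraries and not called. The call on Itga2 was lost without CCR6 library 2 (adjusted p = 0.0812) or ILC1 library 3 (adjusted p = 0.257). Cd69, a retention gene, measured 2131, 1020 and 1864 CPM in ILC1 and 2237, 2400 and 1820 in CCR6 (-0.36 ± 0.19, adjusted p = 0.191). The call on Itgb3 was lost without ILC1 library 2 (adjusted p = 0.473).

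The list of conventional natural killer cell genes overlaps several of the above. Of these genes, 5 of 8 tested were called higher in ILC1 and 0 lower (median log2 fold change 2.20), or 5 and 0 without ILC1 library 2 (median 1.93). Called members included Eomes, Itga2 and Irf8, and Khdc1a, which was at 1.65, 0 and 1.22 CPM in ILC1 and without a read in CCR6. The call on Khdc1a was lost without CCR6 library 1 (adjusted p = 0.0806), CCR6 library 2 (adjusted p = 0.0998), CCR6 library 3 (adjusted p = 0.0953) or ILC1 library 1 (adjusted p = 0.055). Itgam and Cx3cr1, which mature natural killer cells carry, were at most 8.76 and 2.19 CPM in any library and not called, and Zeb2 had 2.74, 8.28 and 7.5 CPM in ILC1 and 14.7, 20.1 and 20 in CCR6 (-1.57 ± 0.79, adjusted p = 0.179).

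Genes of antigen presentation were lower in ILC1 or not called. MHC class II molecules on ILC3 can present antigen to T cells. Of the class II genes, 0 of 16 tested were called higher in ILC1 and 7 lower (median log2 fold change -1.40), or 1 and 7 without ILC1 library 2 (median -1.76), against 9.99% of all tested genes called lower. Cd74, the invariant chain, measured 226, 179 and 256 CPM in ILC1 and 1707, 1813 and 1796 in CCR6 (-3.01 ± 0.23, adjusted p = 1.69e-09). H2-Aa was at 36.9, 28.3 and 45.1 CPM against 286, 314 and 288 (-3.0 ± 0.24, adjusted p = 5.12e-09), H2-Ab1 at 102, 47.1 and 76.9 against 274, 283 and 309.7 (-1.94 ± 0.24, adjusted p = 3.54e-06) and H2-Eb1 at 34.9, 21.4 and 33.5 against 107, 127 and 132 (-2.02 ± 0.50, adjusted p = 0.00538). H2-Oa, which restrains peptide loading, was at 1.39, 0.482 and 1.93 CPM against 52.7, 46.4 and 43.4 (-5.15 ± 0.43, adjusted p = 9.4e-09). The loading gene H2-DMa went the other way without passing the test (0.51 ± 0.20, adjusted p = 0.073), and it was called higher without ILC1 library 2 (adjusted p = 0.0318). Ciita, the master regulator, overlapped (-0.20 ± 0.43, adjusted p = 0.797), and the costimulatory genes Cd80 and Cd86 were below 4 CPM in each library. In WT NKp46 and DN libraries Cd74 averaged 47.4 and 130.3 CPM, so of the 4 WT populations CCR6 had the highest mean and ILC1 the next.

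Among checkpoint genes, that of PD-1 was higher in CCR6 and that of LAG-3 in ILC1. Of the checkpoint and costimulation genes, 11 of 21 tested were called higher in ILC1 and 3 lower (median log2 fold change 1.13), or 12 and 4 without ILC1 library 2 (median 1.29). Pdcd1, which encodes PD-1, measured 0.903, 0 and 0.762 CPM in ILC1 and 126, 67.1 and 123 in CCR6 (-7.36 ± 1.01, adjusted p = 1.3e-05). Lag3 was at 175, 146 and 167 CPM against 17.3, 16.1 and 15.2 (3.33 ± 0.20, adjusted p = 3.64e-11), Cd27 at 40, 23.4 and 41.5 against 0.133, 0.341 and 0.716 (6.42 ± 0.62, adjusted p = 8.43e-08) and Cd28 at 159, 74.5 and 94.8 against 18.8, 2.46 and 2.03 (3.83 ± 0.72, adjusted p = 0.000463). Entpd1, which encodes the ATP-degrading enzyme CD39, was higher in ILC1 (5.21 ± 0.69, adjusted p = 7.77e-06), and Nt5e, which encodes CD73, the next enzyme of that path to adenosine, was lower (-1.24 ± 0.24, adjusted p = 0.000678). Tnfrsf25, the receptor of TL1A, was at 199.6, 119 and 183 CPM against 639, 562 and 544 (-1.80 ± 0.15, adjusted p = 1.1e-08), and Tnfrsf18, which encodes GITR, at 305, 280.5 and 236 against 102, 85.2 and 72.1 (1.67 ± 0.14, adjusted p = 1.13e-08). Exons of Tnfrsf18 share 27.2% of their length with a predicted gene on the opposite strand. Icos overlapped (0.07 ± 0.20, adjusted p = 0.844). Single libraries moved the change of Cd27 to 7.13 and that of Entpd1 to 6.03, both without CCR6 library 3, and that of Entpd1 to 4.56 without ILC1 library 3.

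The list of lymphoid tissue inducer-like and ILC3 genes holds many genes given above and Ccr6 itself. Of it, 1 of 22 tested was called higher in ILC1 and 20 lower (median log2 fold change -2.99), or 1 and 20 without ILC1 library 2 (median -2.92). The 1 member called higher was Ahr, which encodes the aryl hydrocarbon receptor, with 30, 49.7 and 24.4 CPM in ILC1 and 9.23, 14.1 and 12.4 in CCR6 (1.54 ± 0.27, adjusted p = 0.000213), and the 1 not called was Tnfsf4, below 2 CPM in each library. Members not yet named were the ion channel genes Tmem176a, at 755, 570.2 and 609 CPM against 2401, 2221 and 1979 (-1.77 ± 0.12, adjusted p = 2.56e-10), and Tmem176b (-0.77 ± 0.12, adjusted p = 3.78e-05), and the activation marker Cd83, at 56.2, 24 and 38.3 against 490.1, 448 and 375 (-3.46 ± 0.34, adjusted p = 8.13e-08). Ahrr, a repressor that AHR itself induces, was also higher in ILC1, at 19, 14.9 and 24.2 CPM against 0.988, 1.82 and 0.678 (4.05 ± 0.58, adjusted p = 2.31e-05), as was its target Tiparp (1.20 ± 0.22, adjusted p = 0.00044). The retinal reductase gene Dhrs3 was at 225, 116 and 164 CPM against 1033, 1305 and 1208 (-2.81 ± 0.19, adjusted p = 3.18e-10). Of the AHR and retinoid genes, 3 of 13 tested were called higher in ILC1 and 1 lower (median log2 fold change 0.00), or 2 and 1 without ILC1 library 2 (median -0.13), against 9.33% and 9.99% of all tested genes.

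Receptors for signals of nerves, hormones and metabolites went both ways. Of these genes, 8 of 26 tested were called higher in ILC1 and 9 lower (median log2 fold change -0.08), or 8 and 8 without ILC1 library 2 (median -0.06). Ret, the receptor for glial-derived neurotrophic factors, measured 0, 0.964 and 1.22 CPM in ILC1 and 157, 199 and 175 in CCR6 (-7.95 ± 0.57, adjusted p = 8.53e-10). The change of Ret was -9.16 without ILC1 library 3 and -7.30 without ILC1 library 1. Vipr2, a receptor of vasoactive intestinal peptide, was at 1.16, 0.241 and 5.03 CPM against 121, 164 and 142 (-5.94 ± 0.80, adjusted p = 9.97e-06). Ramp1, a subunit of the receptor for the pain peptide CGRP, was at 10.9, 5.22 and 7.06 against 261, 207 and 209 (-4.85 ± 0.27, adjusted p = 1.16e-11), and Ramp3, its relative, at 7.16, 9.88 and 2.97 against 213, 169 and 146 (-4.76 ± 0.41, adjusted p = 1.56e-08). Ffar2, whose product senses short-chain fatty acids, was present in both groups and lower in ILC1 (-1.53 ± 0.15, adjusted p = 6.37e-08). Ffar3, whose product binds the same ligands, was below 2 CPM throughout, and its call was lost without ILC1 library 2 (adjusted p = 0.1).

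Higher in ILC1 were the adenosine receptor gene Adora2a, at 136, 59.1 and 103 CPM against 5.3, 4.26 and 2.14 (4.68 ± 0.39, adjusted p = 9.02e-09), the acid-sensing receptor gene Gpr65 (1.63 ± 0.15, adjusted p = 5.57e-08), and Gpr55, a lipid receptor gene (6.11 ± 0.97, adjusted p = 7.43e-05). Prostaglandin E2 receptors split by subtype. Ptger2 was at 9.67, 6.67 and 13.9 CPM in ILC1 and 70.9, 107 and 127 in CCR6 (-3.32 ± 0.29, adjusted p = 1.56e-08), and Ptger4 at 43.2, 111 and 137 and 4.54, 13.1 and 13.4 (3.23 ± 0.61, adjusted p = 0.000484).

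Of the genes floxed in these mice, Nr1d1 differed between the populations and Nr1d2 was not called. Nr1d1 measured 104, 49.8 and 133 CPM in ILC1 and 539.6, 585 and 599 in CCR6 (-2.58 ± 0.21, adjusted p = 7.84e-09), with no overlap, and Nr1d2 13, 18.7 and 32.5 and 35.9, 37.6 and 39.4 (-0.81 ± 0.36, adjusted p = 0.127). Exons of Nr1d1 overlap those of Thra on the opposite strand. Of the clock genes, 2 of 16 tested were called higher in ILC1 and 3 lower (median log2 fold change -0.41), or 1 and 3 without ILC1 library 2 (median -0.40), against 9.33% and 9.99% of all tested genes. Arntl, which encodes BMAL1 and is repressed by REV-ERB, was lower in ILC1 at 24.1, 25.2 and 62.5 CPM against 60.4, 89.4 and 84.1, where ILC1 library 3 overlapped, with a change of -1.06 that was -1.69 without ILC1 library 3, and its call was lost without ILC1 library 2 (adjusted p = 0.051). Calls on Cry1, Ciart and Bhlhe41 were lost without ILC1 library 2 and without CCR6 library 2, and that on Cry1 also without CCR6 libraries 1 or 3. Per1 (0.39 ± 0.19, adjusted p = 0.166) and Bhlhe40, with 5855, 2704 and 4719 CPM in ILC1 and 3381, 3654 and 2758 in CCR6 (0.44 ± 0.19, adjusted p = 0.117), were not called, and the latter was called higher without ILC1 library 2 (adjusted p = 0.00185).

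Immediate early genes, which rise within minutes of stimulation or tissue digestion, went in opposite directions. Of this list, 9 of 25 tested were called higher in ILC1 and 7 lower (median log2 fold change -0.02), or 10 and 6 without ILC1 library 2 (median 0.01). Fos measured 3290, 3126 and 2748 CPM in ILC1 and 9436, 10760 and 9129 in CCR6 (-1.68 ± 0.12, adjusted p = 1.39e-09), and Egr1 53.3, 156 and 71.7 and 426, 554 and 476 (-2.38 ± 0.29, adjusted p = 2.58e-06). Junb was at 9150, 6549 and 5861 CPM against 4137, 3369 and 3212 (1.01 ± 0.15, adjusted p = 2.7e-05), and the phosphatase gene Dusp2 at 184, 452 and 139 against 0.076, 0.742 and 0.588 (9.03 ± 0.55, adjusted p = 5.37e-11). The nuclear receptor genes Nr4a2 (2.92 ± 0.31, adjusted p = 2.67e-07) and Nr4a3 (3.03 ± 0.34, adjusted p = 8.35e-07) were higher, and the heat shock gene Dnajb1 lower in ILC1 (-1.14 ± 0.16, adjusted p = 1.27e-05). The change of Dusp2 was 8.35 without ILC1 library 2. The part of tissue handling in these values was not tested. Of the NF-kB genes, 4 of 19 tested were called higher in ILC1 and 6 lower (median log2 fold change 0.12), or 5 and 6 without ILC1 library 2 (median 0.23). Nfkb2 (-1.54 ± 0.18, adjusted p = 1.04e-06) and Map3k14 (-1.03 ± 0.13, adjusted p = 6.05e-06) were lower in ILC1, and Relb was not called (0.03 ± 0.30, adjusted p = 0.959). Tnfaip3, which encodes A20 (1709, 3212 and 3621 CPM against 502, 593 and 424, 2.49 ± 0.28, adjusted p = 5.93e-07), and Nfkbid (1.43 ± 0.20, adjusted p = 1.27e-05) were higher. Other inhibitors of the pathway were lower in ILC1, as Nfkbie (-1.57 ± 0.16, adjusted p = 1.47e-07) and Tnip1 (-0.61 ± 0.13, adjusted p = 0.00135), or not called, as Nfkbia (0.39 ± 0.17, adjusted p = 0.124) and Nfkbib (0.15 ± 0.17, adjusted p = 0.586). Tnip3 was called lower as well, but not without ILC1 library 2 (adjusted p = 0.0786).

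Among survival genes, 6 of 19 tested were called higher in ILC1 and 1 lower (median log2 fold change 0.64), or 7 and 1 without ILC1 library 2 (median 0.65). The A1 family members Bcl2a1a (2.98 ± 0.43, adjusted p = 2.1e-05), Bcl2a1b (3.44 ± 0.30, adjusted p = 1.56e-08) and Bcl2a1d (3.75 ± 0.30, adjusted p = 3.58e-09) were higher in ILC1, though reads among these near-identical copies cannot be assigned with certainty. Of the TGF-beta and residency genes, 5 of 19 tested were called higher in ILC1 and 2 lower (median log2 fold change 0.14), or 4 and 2 without ILC1 library 2 (median -0.05). Rgs1, which dampens chemokine receptors, measured 9213, 4511 and 7980 CPM in ILC1 and 1730, 1811 and 1659 in CCR6 (2.06 ± 0.19, adjusted p = 5.42e-08). Hpgds, a prostaglandin D synthase gene, was lower in ILC1 (-3.25 ± 0.79 (adjusted p = 0.0048), or -3.90 without ILC1 library 2). The call on Smad7 was lost without ILC1 library 2, where it was highest (adjusted p = 0.0508).

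**Figure D4:**
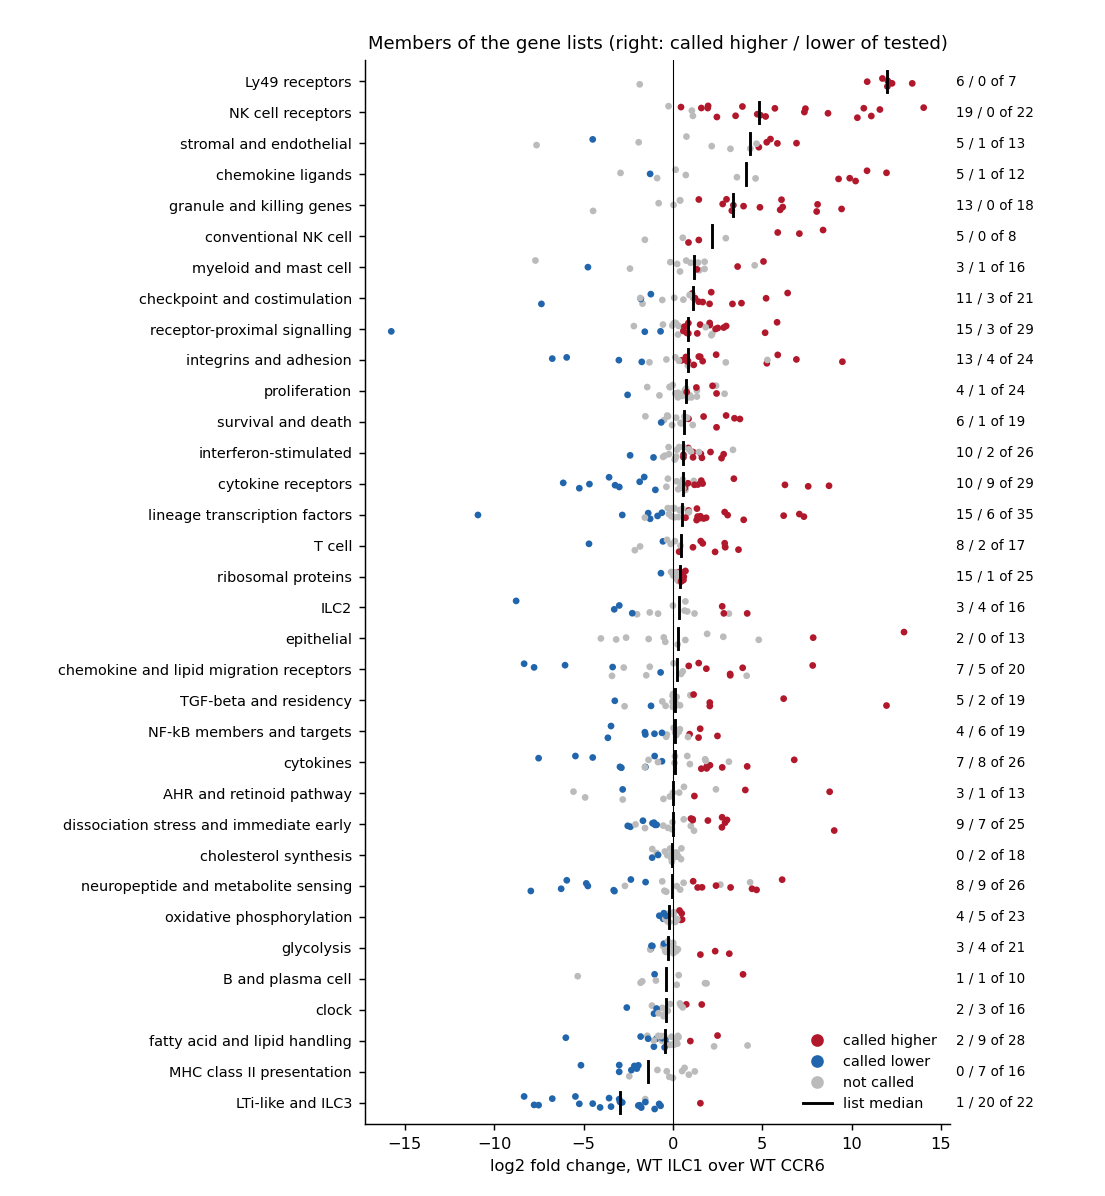
Log2 fold change of WT ILC1 over WT CCR6 (x axis) for each tested member of the gene lists with at least 4 tested members (rows, ordered by median). Red points are called higher, blue called lower and grey not called, black bars are list medians, and the numbers on the right give members called higher and lower of those tested. Over all tested genes, 9.33% were called higher and 9.99% lower. The Ly49 and natural killer receptor lists lie to the right and the LTi-like and ILC3 list to the left.

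Most of the largest changes, in or outside the lists, were in genes nearly or wholly without reads in one group. An exception was Ccl4, which reached 5.73 CPM in CCR6 library 3. The 15 largest on the higher side, by the rule given under the processing, were Klre1, Klra7, Cdh1, Samd3, Klra1, Klra9, Klra5, Xcl1, Klra3, Klri1, Fcrls, Klrc3, Klra6, Ccl4 and Klrc2, all but 5 of them members of the Ly49 or killer lectin families. Samd3 measured 94.3, 46.1 and 93.3 CPM in ILC1 and 2 reads in CCR6 in all. Fcrls, an Fc receptor-like gene, was at 7.9, 11.3 and 4.32 CPM and without a read in CCR6, at least 565-fold higher.

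The 15 largest on the lower side were Blk, Ip6k3, Gchfr, Fam155a, Tmem150c, Fam189a1, Ptprm, Il33, S100g, Pdia5, Mcf2, Spry1, Fggy, Ptprz1 and Tox2. All but Tox2 had 0 reads in the 3 ILC1 libraries. Il33, the alarmin gene, measured 12.4, 6.88 and 15.2 CPM in CCR6 and was at least 317-fold lower in ILC1. Gchfr, the regulator of the first enzyme of tetrahydrobiopterin synthesis, was at 20.9, 21.4 and 16.1 CPM in CCR6 and at least 538-fold lower. Spry1, an inhibitor of growth factor signalling, was at 5.95, 10.1 and 9.16 CPM and at least 232-fold lower. Ptprm and Ptprz1, receptor phosphatase genes of adhesive and neural tissues, were at 10.8, 13.8 and 14.9 and 8.4, 4.51 and 8.52 CPM in CCR6. For these genes the depth of the ILC1 libraries sets the bound, and lower levels were not detectable.

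The same populations in animals labelled DKO gave a comparison that shares no library with the one above. Nr1d1 measured 458, 484 and 515 CPM in the ILC1 and 1560, 1482 and 1459 CPM in the CCR6 libraries labelled DKO, higher than in WT. Counts per gene do not show which exons were read, so they do not check that label. In DKO, 2527 genes were called between ILC1 and CCR6 (11.9%), 1275 higher (5.99%) and 1252 lower (5.88%). Of the genes called higher in WT, 915 (46.1%, or 71.8% of the DKO list) were called higher in DKO too, and of those called lower 878 (41.3%, or 70.1% of the DKO list). The opposite call was made for 18 and 10 genes. The sign was shared by 93.1% of the higher and 91.3% of the lower genes. Tbx21 differed by 7.12 in DKO (adjusted p = 7.32e-08), Ccr6 by -9.74 (adjusted p = 2.23e-07) and Xcl1 by 14.54 (adjusted p = 2.71e-12).

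The difference between the genotypes in this contrast was itself tested and called for 249 genes (1.17%), of which 197 were among those called in WT. In 65 of the 88 such genes higher in WT ILC1, and in 94 of the 109 lower, the contrast was smaller or reversed in DKO. As these genes were chosen by their WT call, which by itself favours that side, nothing is concluded from these counts. Over all tested genes, 2423 (11.4%) had an unadjusted p under 0.05 for the difference. The contrasts of Il17a and Il17f were wider in DKO. In the libraries labelled DKO, Il17a was at 135, 135 and 159 CPM in CCR6 and without a read in ILC1, and Il17f at 854, 898 and 710.5 CPM in CCR6 and 0.0449, 0 and 0.313 in ILC1. The contrast for Il17f was -12.33 in DKO and -7.52 in WT, a difference of -4.82 ± 1.18 (adjusted p = 0.0473), and the WT value was -10.76 without ILC1 library 3. Ltb, with 731, 739 and 711 CPM in ILC1 and 993, 862 and 697 in CCR6, had a narrower contrast, and the difference was 0.80 ± 0.17 (adjusted p = 0.0214). Mmp9, a matrix protease gene, turned from 176, 185 and 223 CPM in ILC1 against 7.49, 3.69 and 5.6 in CCR6 in WT to 348, 311 and 361 against 1012, 829 and 721 in DKO, a difference of -6.45 ± 0.28 (adjusted p = 4.1e-12). Csf2, higher in WT ILC1, was at 80.1, 75.5 and 62.3 CPM in ILC1 and 83.7, 117 and 66.8 in CCR6 in DKO, a difference of -2.18 ± 0.40 (adjusted p = 0.0065).

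**Figure D5:**
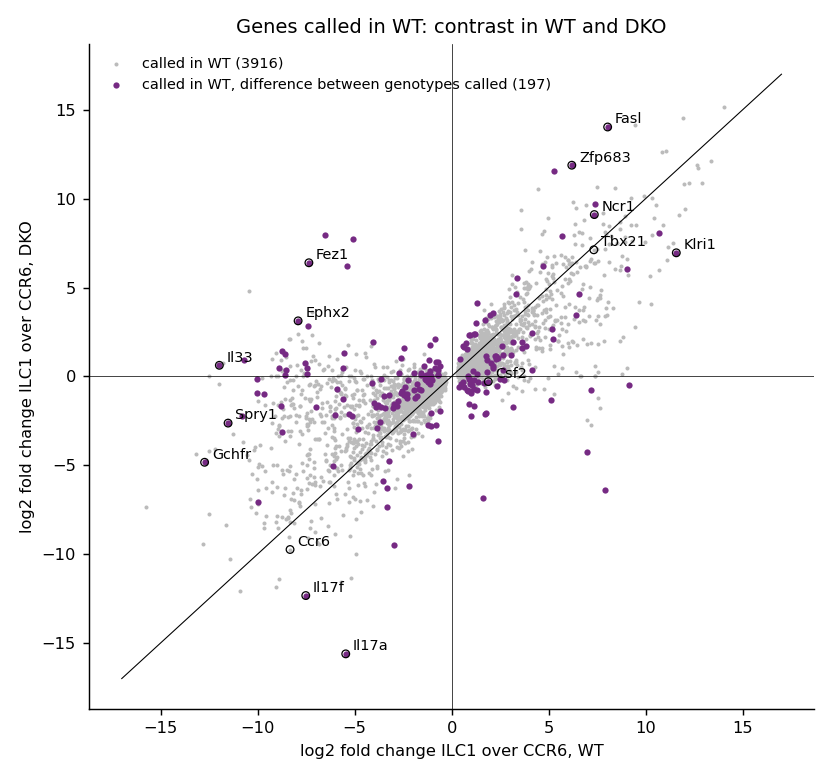
Log2 fold change of ILC1 over CCR6 in WT (x axis) and in DKO (y axis) for the genes called in WT, with a line of equal change. Purple points are the 197 genes whose contrast also differed between genotypes. Tbx21 and Ccr6 lie near the line, and Il33, Fez1 and Ephx2 lie away from it. Fitted values of genes without reads in a group depend on a prior count.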

How the data were processed

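Total RNA of sorted cells was sequenced, and the authors deposited 1 table of raw read counts per gene for 24 libraries in 8 groups. Per the submitters' processing notes the build was mm10 and the tools named were STAR 2.7.9a and Salmon 1.5.2, featureCounts 2.0.3 of Subread, DESeq2, R 4.1 and bcl2fastq, with no order given. The strand setting is not given in the sources used here. Of 55774 deposited count rows, 455 held 168 identifiers that stood on several rows. The first row of each identifier was kept, leaving 55487 genes. Genes passing edgeR's filter by group (21286) were fitted with edgeR 4.0.16 in R 4.3.3 (TMM factors, robust quasi-likelihood test, 8 group means, 16 residual degrees of freedom), so all libraries shared 1 estimate of the spread. The main fit did not pair samples by replicate number. Alternatives were DESeq2 1.42.0, limma 3.58.1 voom, other scaling and filters, fewer libraries and left-out libraries. The fit was also run on simulated data, and the outcome is not given here.

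The comparison and the 35 gene lists (663 distinct genes) were chosen with earlier results of these data known. Named genes were the sort markers, the 15 largest non-overlapping called changes each way with a mean of at least 5 CPM in the higher group, up to 8 called and 3 uncalled members of each list, all lineage factors, cytokines, cytokine receptors, T cell and conventional natural killer cell genes, and up to 8 genes each way with the largest genotype difference. Chosen after their values were seen were Ccr7, Cd226, Cd28, Cd80, Cd86, Cxcr4, Fabp1, Ffar3, Gpr55, Gzmb, Gzmc, Gzmk, Itgad, Itgae, Itgb3, Klrc1, Klrd1, Klrk1, Krt19, Lyn, Muc2, Nt5e, Plcg1, Ptger4, Serpinb9, Tmem176b and Vipr2. Promoter motifs were searched in the 250 bases before the start only, not also in those after it as first planned. A few genes counted in the lists are not reported by name here. Gene positions and exon lengths are from GENCODE M21 (GRCm38).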

Additional observations from a re-analysis of the deposited data

Results flagged for a closer look

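In 51 named genes the contrast of ILC1 with CCR6 differed between the genotypes in the test of the difference itself, called at an edgeR adjusted p under 0.05. In parentheses below is the log2 fold change in DKO minus that in WT, and no explanation of the differences was tested.

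A wider contrast in DKO, with ILC1 higher in both genotypes, was found for Ncr1 (1.75), Klrb1c (2.21), Klrb1a (1.48), Slamf7 (2.28), Fasl (5.99), Zfp683 (5.68) and Lag3 (1.33). Fasl and Zfp683 changed by 14.03 and 11.88 in DKO. In WT CCR6 they were at most 2.83 and 0.228 CPM in any library. The WT contrast of Fasl was 9.19 without CCR6 library 1, against 8.04 with it. How far levels near 0 in CCR6 set the size of these differences was not tested. A narrower contrast was found for Klrc2 (-2.60), Klri1 (-4.63), Cd27 (-2.99) and Bcl11b (-1.84). The contrast of Cd44 (-0.81), Csf2 (-2.18), Lpl (-2.63), Slc16a3 (-2.90) and Bcl2l11 (-1.04) was called in WT and not in DKO. That of Mmp9 (-6.45), Bhlhe41 (-8.45), Treml2 (-4.90) and Ndufa1 (-0.92) had opposite calls in the 2 genotypes. The WT call on Ndufa1 was lost without CCR6 library 2 (adjusted p = 0.057), CCR6 library 3 (adjusted p = 0.096) or ILC1 library 1 (adjusted p = 0.117). That on Bhlhe41 was lost without CCR6 library 2 (adjusted p = 0.126) or ILC1 library 2 (adjusted p = 0.166). Mmp9 and Bhlhe41 were at 1012, 829 and 721 and 247, 281 and 282 CPM in the CCR6 libraries labelled DKO against 7.49, 3.69 and 5.6 and 0.931, 0.353 and 0.882 in those of WT.

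A narrower contrast in DKO, with CCR6 higher in both genotypes, was found for Lta (1.30), Cd74 (1.25), H2-Oa (2.93), Ctss (1.21), Arg1 (1.28), Dhrs3 (1.16), Plcg2 (0.79), Tmem176a (0.67), Gchfr (7.90) and Spry1 (8.89). The contrast of Ltb (0.80), Batf (1.33), Bst2 (1.82), Dnajb1 (1.07), Adm (9.06), Ankrd35 (10.22), Bbs7 (8.56), Ephx2 (11.04) and Il33 (12.59) was called lower in WT and was not called in DKO. It was called lower in WT and higher in DKO for Gpr183 (1.07) and Fez1 (13.75). A wider contrast, with CCR6 higher in both genotypes, was found for Il17a (-10.15), Il17f (-4.82), Il17re (-1.50), Tnf (-1.33), Spon2 (-6.51) and Zfp385c (-3.98). The contrast was called in DKO and not in WT for Birc3 (0.94), Cd101 (3.17) and Traf1 (0.96), and in neither for Cyp51 (1.90). Of these genes, Bbs7, Gchfr, Il33 and Spry1 had no read in WT ILC1, and Adm, Ankrd35, Ephx2 and Fez1 had at most 3. Il17a had no read in DKO ILC1. The values of these genes therefore depend on the prior count of the fit. The WT contrasts of Il17a and Il17f were -10.22 and -10.76 without WT ILC1 library 3, against -5.46 and -7.52 with it. That of Spon2 was -7.60 without WT ILC1 library 3, against -2.96 with it. Its WT call was lost without CCR6 library 1 (adjusted p = 0.0902) or 3 (adjusted p = 0.061), or ILC1 library 1 (adjusted p = 0.0964) or 2 (adjusted p = 0.0989).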

How the results depend on the processing

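The number of genes called between WT ILC1 and WT CCR6 (4113) was 5399 with DESeq2, 4649 with limma voom and 3879 with no filter on low counts. It fell to 1823 (836 higher, 987 lower) when only the 2 groups were fitted, and was 2786 (1246 higher) when ILC1 replicate 2 was also left out of that fit, an alternative chosen after seeing the data. Leaving out 1 WT library at a time gave 2894 to 4616 genes in all and 1294 to 2098 higher, the lowest 2 without CCR6 library 2 (1294) and without CCR6 library 3 (1322). The difference between genotypes (249 genes, 136 positive and 113 negative) was 613 (362 and 251) with DESeq2, 383 (247 positive) with no filter and 88 (45 and 43) with only the groups of the contrast. Left-out libraries gave 145 to 478 in all, 76 to 323 positive and 69 to 155 negative, with 478 without WT ILC1 library 3, 156 without WT CCR6 library 2, 145 without DKO CCR6 library 2, 159 without DKO CCR6 library 3 and 75 negative without DKO ILC1 library 2. The cause was not tested. With the replicate number as a block the counts were 4009 in WT, 2580 in DKO and 221 for the difference. Deviations from the group mean correlated between same-numbered ILC1 and CCR6 libraries at 0.0532, 0.00428 and 0.0699 in WT. In DKO these values were 0.031, 0.0315 and 0.0415. Between different numbers they ran from -0.0966 to 0.0421 in WT and from -0.0246 to -0.0101 in DKO. The labels give no pairing, and whether the numbers reflect one was not tested. Of 399 named genes, 383 kept their direction and side of the threshold under the block, 380 with DESeq2, 364 with voom and 340 without ILC1 library 2. The lowest shares were 314 of 386 with only the groups of the contrast and 305 of 389 in that fit without ILC1 replicate 2. None of the named genes that were called changed sign under any alternative run. Of 326 distinct list members called, 45 were not called without ILC1 library 2. The lower depth of the ILC1 libraries limits what can be said of genes near 0 in them.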

Other observations

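Most of the metabolic genes tested were not called. Of the glycolysis genes, 3 of 21 tested were called higher in ILC1 and 4 lower (median log2 fold change -0.28), or 4 and 5 without ILC1 library 2 (median -0.07). The shares over all tested genes were 9.33% and 9.99%. Slc2a3, which encodes the glucose transporter GLUT3, measured 177, 93.1 and 220.1 CPM in ILC1 and 56.4, 56.2 and 56.7 in CCR6 (1.54 ± 0.22, adjusted p = 2.39e-05), and the lactate exporter gene Slc16a3 12.6, 23.5 and 9.32 and 2.55, 2.75 and 3.44 (2.36 ± 0.27, adjusted p = 8.14e-07). Hk2, the gene of an entry enzyme of glycolysis, was lower in ILC1 (-1.24 ± 0.24, adjusted p = 0.000793), as was Pfkl (-1.15 ± 0.17, adjusted p = 2.25e-05). Of the oxidative phosphorylation genes, 4 of 23 tested were called higher in ILC1 and 5 lower (median log2 fold change -0.22), or 3 and 4 without ILC1 library 2 (median -0.08), and the range of the called changes lay between -0.76 for Sdha and 0.51 for Cox5a. The call on Sdha was lost without CCR6 library 2 (adjusted p = 0.0563) or CCR6 library 3 (adjusted p = 0.0584), and that on Cox5a without CCR6 library 2 (adjusted p = 0.102), CCR6 library 3 (adjusted p = 0.0622) or ILC1 library 1 (adjusted p = 0.152).

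Lipid genes were called on the lower side more often than on the higher. Of the fatty acid and lipid genes, 2 of 28 tested were called higher in ILC1 and 9 lower (median log2 fold change -0.44), or 3 and 6 without ILC1 library 2 (median -0.23). Dgat1, which makes triglycerides for storage, measured 159.5, 153 and 122 CPM in ILC1 and 366, 435 and 337 in CCR6 (-1.39 ± 0.25, adjusted p = 0.000262), and its partner Dgat2 0, 0.804 and 0.406 and 21.6, 21.2 and 26.7 (-5.99 ± 1.34, adjusted p = 0.00248). The change of Dgat2 was -5.35 without ILC1 library 1 and -6.74 without ILC1 library 2. The genes of fatty acid activation and oxidation Acsl1 (-1.81 ± 0.36, adjusted p = 0.000847), Cpt2 (-1.06 ± 0.22, adjusted p = 0.00132) and Acadm (-0.93 ± 0.16, adjusted p = 0.000244) were lower, while Lpl, a secreted lipase gene, was higher from low levels (2.50 ± 0.43, adjusted p = 0.000185). Of the cholesterol synthesis genes, 0 of 18 tested were called higher in ILC1 and 2 lower (median log2 fold change -0.06), or 1 and 0 without ILC1 library 2 (median 0.13), against 9.33% and 9.99% of all tested genes. Both calls, on Pmvk and Msmo1, were lost without ILC1 library 2 (adjusted p = 0.074 and 0.0854).

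Of the interferon-stimulated genes, 10 of 26 tested were called higher in ILC1 and 2 lower (median log2 fold change 0.59), or 12 and 1 without ILC1 library 2 (median 0.53). Oas3 (2.10 ± 0.30, adjusted p = 2.46e-05), Ifit3 (2.84 ± 0.62 (adjusted p = 0.00211), or 2.04 without ILC1 library 1) and Gbp4 (1.12 ± 0.22, adjusted p = 0.000806) were higher in ILC1. Bst2, the gene of tetherin, went the other way at 92.9, 62.5 and 73.9 CPM in ILC1 and 439.5, 430.5 and 338 in CCR6 (-2.40 ± 0.21, adjusted p = 1.41e-08). Of the ribosomal protein genes, 15 of 25 tested were called higher in ILC1 and 1 lower (median log2 fold change 0.38), or 11 and 1 without ILC1 library 2 (median 0.32). Most differed little, with Rpl27 at 0.59 ± 0.12 (adjusted p = 0.00129), and Rpl10 was the member called lower (-0.67 ± 0.11, adjusted p = 8.96e-05). Of the proliferation genes, 4 of 24 tested were called higher in ILC1 and 1 lower (median log2 fold change 0.70), or 6 and 0 without ILC1 library 2 (median 0.65), against 9.33% and 9.99% of all tested genes. Hmgb2 measured 389, 246 and 224 CPM in ILC1 and 120.4, 116 and 109 in CCR6 (1.31 ± 0.18, adjusted p = 1.49e-05), and the calls on Birc5 and Plk1 were lost without ILC1 library 2 (adjusted p = 0.157 and 0.0559).

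Of the ILC2 genes, 3 of 16 tested were called higher in ILC1 and 4 lower (median log2 fold change 0.33), or 1 and 3 without ILC1 library 2 (median 0.14), against 9.33% and 9.99% of all tested genes. Arg1, which encodes arginase, measured 76.8, 55.1 and 64.1 CPM in ILC1 and 357, 310.1 and 283 in CCR6 (-2.28 ± 0.15, adjusted p = 3.18e-10), and Nmur1, the neuromedin U receptor gene, 4.06, 0 and 5.23 and 26.3, 30.3 and 39.9 (-3.28 ± 0.57, adjusted p = 0.000229). Of the sex-linked genes, 1 of 2 tested was called higher in ILC1 and 1 lower (median log2 fold change 1.33), or 0 and 1 without ILC1 library 2 (median -0.31). Xist was read in all 6 libraries, at 74.2, 174 and 88.2 CPM in ILC1 and 221, 263 and 225 in CCR6, and the Y-linked gene Ddx3y stood at 0.226, 3.7 and 0.152 and 0.171, 0.0236 and 0.102. The part of the animals' sex in the results was not tested.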
